A study of Mus musculus with 28 samples.

Results

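A group of 25 protein-coding genes had higher RNA on day 2 of retinoic acid treatment than before and after it, out of 55385 genes in the RNA data. The members were chosen from the RNA values. Levels in CPM (a gene's estimated counts divided by the library's total, times 1000000) were averaged over 2 libraries per group. A member had a mean of at least 10 CPM on day 2 with DMSO, at least 4 times the mean on each of days 0, 4 and 8, and less than 4 times the mean on day 2 with MS-275. Symbols starting with Hox, Col or Wnt were left out. The day 2 peak and the limit on the MS-275 difference are therefore properties of the choice, and are described without a test. Under the same level and fold limits 211 protein-coding genes peaked on day 0, 29 on day 4 and 135 on day 8.

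The samples came from P19 cells, an established mouse embryonal carcinoma line that is pluripotent and turns into neural cells in retinoic acid. Day 0 cells grew in proliferation medium with no retinoic acid. Day 2 cells had 1 µM retinoic acid, and on day 1 they were given either 1 µL of DMSO (the solvent) or the same volume of MS-275 from a 10 mM stock; MS-275 blocks the class I histone deacetylases. Day 4 cells had retinoic acid throughout and are labelled as neural stem and progenitor cells. Day 8 cells were replated after day 4 in neuronal medium, and 1 µM retinoic acid is listed for them too. RNA-seq had 2 libraries in each of these 5 groups, with 18115926 to 19586374 estimated counts each. Chromatin was measured as deposited peak lists for acetylated H3 lysine 9 (H3K9ac), crotonylated H3 lysine 9 (H3K9cr) and lactylated H3 lysine 18 (H3K18la), with 1 list per mark for each day 2 condition and 2 on day 4, and for open chromatin (ATAC-seq), with 2 lists on day 4. All groups are 1 cell line. The day 2 groups differ from days 0, 4 and 8 not only in time but also in the addition on day 1, since DMSO is named only for day 2, and time and addition cannot be told apart. Day 0 differs as well in having no retinoic acid, and day 8 in replating and neuronal medium. These differences cannot be told apart from time either. The series calls its replicates biological, and p-values here measure the spread between these libraries.

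Retinoic acid enters cells, is carried by binding proteins, and acts through nuclear receptors that sit on DNA as heterodimers and switch target genes on. Its targets include the enzymes that destroy it and corepressors that quiet the same receptors, so the response carries its own brakes. In embryonal carcinoma cells it turns down the pluripotency genes and turns on genes of neural progenitors. The summed level of 11 pluripotency markers was 2308 to 2318 CPM on day 0 and 51.1 to 53.3 CPM on day 2 with DMSO, where 2 of them (Fgf4 and Zfp42) had no counts. The sum of 8 neural stem and progenitor markers was 631 CPM in both day 0 libraries, 1136 to 1146 CPM on day 2 with DMSO and 3064 to 3269 CPM on day 4, and none was at 0 on day 2. In bulk RNA, fewer cells that express a gene and less RNA per cell cannot be told apart.

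Beyond the members, 12 genes met the level and fold limits. Shisa6, Parm1 and Fzd8 were 4 times or more lower with MS-275. A further 3 were left out by symbol, among them Colec12, which encodes a collectin, a lectin, and is caught by the prefix of the collagens. The other 6 are not protein-coding in RefSeq. Abhd15 was nearest the fold limit, at 4.02 times its next highest day, followed by Aqp11 at 4.06 and Il4ra at 4.31. Just outside it were Fndc3c1 at 3.90, Dusp9 at 3.81 and Gbp9 at 3.77. Tcea3 was nearest the level limit at 11.2 CPM, and Vsir at 9.43 and Dkk1 at 8.97 CPM lay just under it. The choice is sensitive to the fold: 3 times in place of 4 gives 42 genes and 5 times gives 16.

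**Figure D1:**
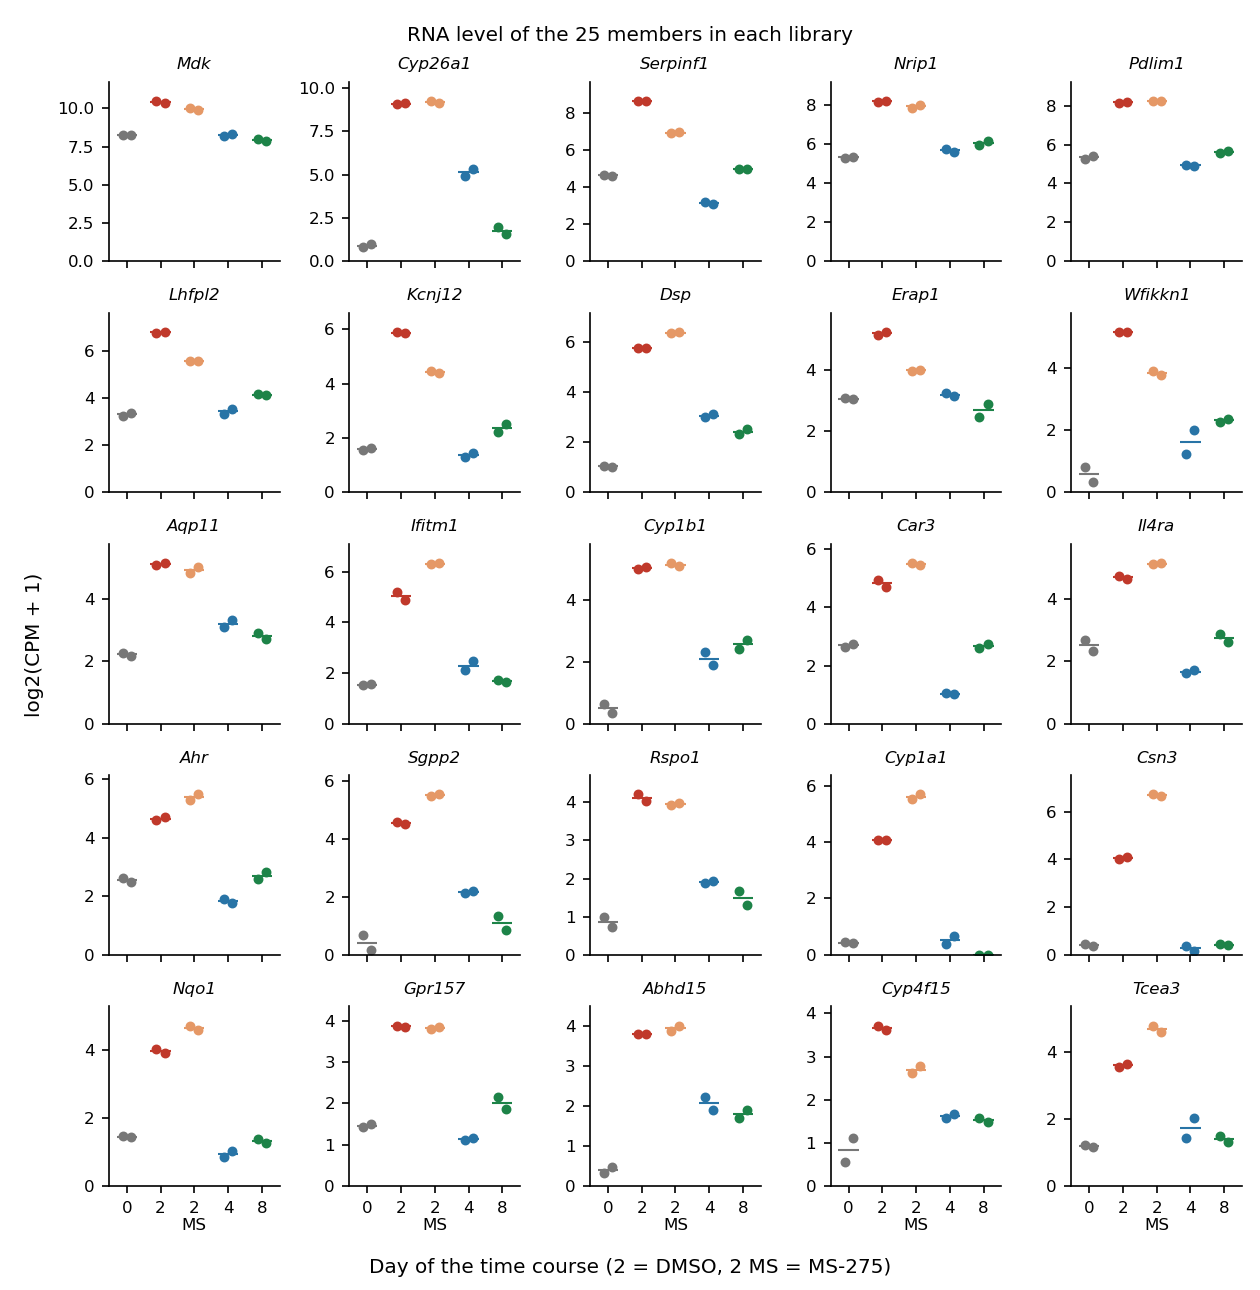
RNA level of each member as log2(CPM + 1), with 1 point per library, a line at the mean of 2 libraries, and the 5 groups along the horizontal axis. Each member is high on day 2 with DMSO, and the spread between replicates is small beside the day 2 peak that the choice required there. The limits of the choice together also place each MS-275 mean above those of days 0, 4 and 8, so that this is not a result. For members such as Erap1, Cyp4f15 and Lhfpl2 the MS-275 mean was lower than the DMSO mean.

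The members tied most directly to retinoic acid were Cyp26a1, the enzyme that hydroxylates and clears it, and Nrip1, which encodes a corepressor of nuclear receptors (RIP140). Cyp26a1 stood at 0.768 and 0.988 CPM on day 0, 534 and 558 with DMSO, 615 and 559 with MS-275, 29.6 and 39.7 on day 4 and 2.88 and 1.99 on day 8. This was the widest range among the members between day 0 and day 2, a ratio of 622. Nrip1 started from a higher base, at 38.4 and 40.3 CPM on day 0, with 286 and 299 in the DMSO libraries, 231 and 260.3 in the MS-275 libraries, 53.7 and 48.4 on day 4 and 61.5 and 70.2 on day 8. Neither gene was back at its day 0 level on day 4. The Cyp26a1 promoter is shown because it was the only one of the 21 members with a promoter sequence in the RefSeq table (GRCm38.p6) to hold a direct repeat of the DR5 type, a pair of receptor half-sites 5 bases apart that retinoic acid receptors are known to bind. The 150 bases before its start, chr19:37697658-37697807 on the plus strand, are printed with the repeat in capitals; it begins 32 bases before the start and reads on the opposite strand.
Cyp26a1: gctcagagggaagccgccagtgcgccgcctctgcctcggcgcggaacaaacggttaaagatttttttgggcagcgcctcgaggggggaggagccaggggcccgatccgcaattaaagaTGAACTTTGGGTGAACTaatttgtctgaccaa
Such a repeat was held by 0.298% of all 16800 promoters. The match is a description of the letters, and binding was not measured.

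The other genes of retinoic acid synthesis, binding, breakdown and response were followed over the same days, in a list of 28 genes of which 2 are members. Of the 26 others, all tested, 16 were higher and 4 lower on day 4 than on day 0 by edgeR's quasi-likelihood test, and 8 were higher and 11 lower on day 8 than on day 4. Of all genes tested, 36.2% were higher and 36.1% lower in the first comparison, and 21.7% and 19.8% in the second. Cyp26b1, a second retinoic acid hydroxylase, went from 0 and 1 count on day 0 to 205 and 200.1 CPM with DMSO and still held 108 and 143 CPM on day 4. Cyp26c1, the third hydroxylase, was low, with 5.46 and 6.18 CPM on day 2 and 0.359 and 0.702 on day 4. Rarb, a retinoic acid receptor, had 75.2 and 75.0 CPM on day 2 and 135 and 138 on day 4. Dhrs3, a retinaldehyde reductase, had 65.1 and 70.8 and then 119.9 and 119 CPM. Crabp2, which carries retinoic acid to its receptors, came close to the rule with 949 and 937 CPM on day 2 and 74.6 and 79.2 on day 4, but its day 8 level of 292 and 291 kept it out. In level, Cyp26a1 and Cyp26c1 were already low on day 4, when Cyp26b1, Rarb and Dhrs3 were not; day 2 was not tested, since the choice of members used it.

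A second set of members belongs to the handling of foreign compounds. Ahr encodes the aryl hydrocarbon receptor, a ligand-activated transcription factor; Cyp1a1 and Cyp1b1 encode oxidising enzymes that it is known to induce, and Nqo1 a quinone reductase induced through it and through the oxidative stress factor Nrf2. These 4 genes were grouped after their values were seen. Ahr had 5.22 and 4.61 CPM on day 0, 23.3 and 24.95 with DMSO, 37.9 and 43.7 with MS-275, 2.77 and 2.43 on day 4 and 5.05 and 6.03 on day 8. Cyp1a1 read 0.358 and 0.329 CPM on day 0, 15.8 and 15.9 with DMSO, 45.1 and 50.8 with MS-275 and 0.308 and 0.594 on day 4, and it had no counts in either day 8 library. Cyp1b1 read 0.563 and 0.274 CPM, then 31.2 and 32.7 with DMSO and 35.6 and 33.4 with MS-275, then 3.95 and 2.70 on day 4 and 4.33 and 5.55 on day 8. Nqo1 read 1.79 and 1.70 CPM on day 0, 15.4 and 14.2 with DMSO, 25.4 and 23.2 with MS-275, 0.820 and 1.03 on day 4 and 1.60 and 1.40 on day 8. Ahr, Cyp1a1 and Nqo1 were clearly higher in both MS-275 libraries than in both DMSO libraries, and Cyp1b1 narrowly so, with the direction reversed when libraries are scaled with TMM factors. Other genes of this response were not members and were not alike in level. Tiparp, a further induced gene, had 24.5 and 24.2 CPM on day 0, 69.8 and 79.0 with DMSO and 33.0 and 32.0 on day 4, a peak under the fold limit. Ahrr, the receptor's repressor, had 2.51 and 4.34 CPM on day 0 and 5.003 and 6.18 with DMSO. Arnt, the receptor's partner, went from 151 and 153 CPM on day 0 to 87.6 and 88.2 with DMSO, and Cyp1a2, the neighbour and close relative of Cyp1a1, had no counts with DMSO.

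The promoters of Cyp1a1 and Nqo1 are shown because they hold a TATAAA box about 30 bases before the start and few CpG dinucleotides. Capitals mark TATAAA and, in Cyp1a1, GCGTG, the core of the element that the aryl hydrocarbon receptor binds. The 100 bases before each start are chr9:57697513-57697612 on the plus strand and chr8:107403206-107403305 on the minus strand.
Cyp1a1: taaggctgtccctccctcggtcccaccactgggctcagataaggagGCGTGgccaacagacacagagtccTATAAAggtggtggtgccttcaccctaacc
Nqo1: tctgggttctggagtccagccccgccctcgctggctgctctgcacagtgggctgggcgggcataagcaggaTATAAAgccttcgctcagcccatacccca
TATAAA lay in the window from 250 bases before to 50 after the start, on either strand, in 3 of 21 members (Cyp1a1, Nqo1 and, after the start, Cyp26a1), against 12.9% of all promoters and 5.76% of those of genes with at least 10 CPM on day 2. GCGTG is short and common: 8 of 21 members held it, or 38.1%, against 39.1% of all promoters and 55.5% of those of genes with at least 10 CPM on day 2. The longer form TNGCGTG was found in none of the 21, which says only that these letters are not in this window. The searches for GCGTG and TNGCGTG were added after the data were seen.

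Cyp4f15, of a family of fatty acid and eicosanoid hydroxylases whose genes are alike enough for reads to be shared, was the third cytochrome P450 family among the members. It had 0.461 and 1.15 CPM on day 0, 12.2 and 11.2 with DMSO, 5.15 and 5.85 with MS-275, 2.00 and 2.16 on day 4 and 1.96 and 1.78 on day 8. Its MS-275 libraries were both lower than its DMSO libraries, opposite to Cyp1a1.

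Secreted proteins made up 5 members: Mdk, Serpinf1, Rspo1, Wfikkn1 and Csn3. Mdk encodes midkine, a heparin-binding growth factor first known as a retinoic acid induced gene. It had 307 and 306 CPM on day 0, 1443 and 1307 with DMSO, 1055 and 970.1 with MS-275, 288 and 320.2 on day 4 and 249.6 and 236 on day 8, so that day 4 overlapped day 0. Its relative Ptn, pleiotrophin, did not share the peak, at 6.45 and 7.26 CPM on day 0, 349 and 334 with DMSO, 516 and 516 on day 4 and 651 and 649 on day 8. Serpinf1 encodes pigment epithelium-derived factor, a neurotrophic serpin. Its levels were 24.0 and 23.1 CPM on day 0, 387 and 396 with DMSO, 118 and 123 with MS-275, 7.998 and 7.36 on day 4 and 30.3 and 30.0 on day 8. Wfikkn1 encodes a protease inhibitor domain protein that binds myostatin and GDF11. It had 0.768 and 0.274 CPM on day 0, 35.2 and 35.2 with DMSO, 14.2 and 12.7 with MS-275, 1.38 and 3.08 on day 4 and 3.86 and 4.15 on day 8. Serpinf1 and Wfikkn1 had the largest deficits with MS-275 among the secreted members. Csn3 encodes kappa-casein, a milk protein. It was nearly silent outside day 2, at 0.358 and 0.274 CPM on day 0, 0.308 and 0.108 on day 4 and 0.361 and 0.323 on day 8, and read 15.1 and 16 with DMSO and 105 and 99.5 with MS-275. The other 2 casein genes checked, Csn1s1 and Csn2, had at most 1 count in any library. Rspo1, an enhancer of Wnt signalling, had 17.5 and 15.4 CPM with DMSO, while Rspo2, Rspo3 and Rspo4 stood at 0.255 and 0, 1.99 and 1.93 and 0.306 and 0.276 CPM in the same libraries.

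A further 6 members encode membrane proteins. Lhfpl2, a tetraspan protein, had 8.55 and 9.39 CPM on day 0, 108 and 111 with DMSO, 47.3 and 46.6 with MS-275, 9.13 and 10.5 on day 4 and 17.3 and 16.3 on day 8. Kcnj12, an inward rectifier potassium channel, had 1.95 and 2.14 CPM on day 0, 58.9 and 56.9 with DMSO, 20.9 and 19.8 with MS-275, 1.49 and 1.73 on day 4 and 3.71 and 4.68 on day 8. Both were lower in both MS-275 libraries. On day 8 both were above day 0, by 1.82-fold for Lhfpl2 and 1.99-fold for Kcnj12 (edgeR). Ifitm1, an interferon-inducible membrane protein, went the other way with MS-275: 1.84 and 1.98 CPM on day 0, 36.0 and 28.6 with DMSO, 78.2 and 79.7 with MS-275, 3.28 and 4.59 on day 4 and 2.27 and 2.09 on day 8. Its close copies can share reads, and Ifitm2 had 124 and 123 CPM on day 0 and 309 and 294 with DMSO. Il4ra, a chain of the interleukin 4 receptor, had 5.48 and 4.01 CPM on day 0, 25.4 and 24.1 with DMSO, 33.8 and 34.4 with MS-275, 2.05 and 2.27 on day 4 and 6.34 and 5.16 on day 8. Its partner chains were low with DMSO, at 0.868 and 0.938 CPM for Il13ra1 and 0.153 and 0.0552 for Il2rg. The other 2 were Aqp11, an intracellular aquaporin, with 32.7 and 34.3 CPM with DMSO, and Gpr157, an orphan receptor, with 13.8 and 13.5 CPM; their ratios of MS-275 to DMSO were 0.881 and 0.967.

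Of the 2 cytoskeletal members, Dsp encodes desmoplakin, which anchors intermediate filaments at desmosomes, and Pdlim1 a PDZ and LIM domain protein of actin fibres. Dsp had 1.08 and 1.04 CPM on day 0, 53.4 and 52.4 with DMSO, 80.6 and 83.3 with MS-275, 6.97 and 7.66 on day 4 and 3.96 and 4.74 on day 8. Of the other desmosome genes, Jup (plakoglobin) and Pkp2 (a plakophilin) already had RNA on day 0: Jup had 52.5 and 53.4 CPM on day 0 and 34.1 and 34.2 with DMSO, and Pkp2 had 33.8 and 31.9 and 22.5 and 26.7. Levels of Dsc2, Dsg2, Pkp1, Pkp3 and Pkp4 are not given here, so Jup and Pkp2 do not stand for the desmosome genes as a set. The summed level of 9 epithelial and trophoblast markers was 266 to 278 CPM on day 0, 42.8 to 43.3 with DMSO and 353 to 366 with MS-275, with Elf5 and Krt7 at 0 with DMSO; its part in the higher Dsp level with MS-275 was not tested. Pdlim1 had 37.9 and 41.3 CPM on day 0, 287 and 293 with DMSO, 305 and 298 with MS-275, 29.7 and 29.3 on day 4 and 46.1 and 50.7 on day 8.

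The last 5 members act inside the cell. Sgpp2 removes the phosphate of sphingosine 1-phosphate, Car3 is a carbonic anhydrase, Erap1 trims peptides in the endoplasmic reticulum for antigen presentation, Abhd15 is a hydrolase-like protein known from fat cells, and Tcea3 is a transcription elongation factor of the TFIIS family. Sgpp2 had 0.614 and 0.110 CPM on day 0, 23.1 and 21.7 with DMSO, 43.8 and 45.2 with MS-275, 3.33 and 3.62 on day 4 and 1.501 and 0.807 on day 8. Its relative Sgpp1 had 4.40 and 4.79 CPM on day 0, 15.7 and 15.3 with DMSO and 13.4 and 12.5 on day 8. Car3 had 5.27 and 5.71 CPM on day 0, 30.1 and 25.1 with DMSO, 45.1 and 42.9 with MS-275, 1.08 and 1.03 on day 4 and 5.10 and 5.65 on day 8, its lowest level being on day 4. Erap1 had 7.46 and 7.34 CPM on day 0, 35.0 and 37.2 with DMSO, 14.9 and 15.1 with MS-275, 8.54 and 7.86 on day 4 and 4.50 and 6.52 on day 8. The levels of Abhd15 were 0.256 and 0.384 CPM on day 0, 13.0 and 12.9 with DMSO, 13.7 and 15.3 with MS-275, 3.70 and 2.75 on day 4 and 2.28 and 2.74 on day 8. Tcea3 had 1.33 and 1.26 CPM on day 0, 10.8 and 11.7 with DMSO, 26.9 and 23.5 with MS-275, 1.69 and 3.14 on day 4 and 1.80 and 1.51 on day 8, whereas Tcea1, the widely used family member, had 134 and 134 CPM on day 0 and 126 and 122 with DMSO. CPM are not scaled to transcript length, so these levels are compared within a gene and not between genes.

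Across the 25 members the day 0 level was 0.161% to 22.3% of the day 2 level with DMSO, with a median of 6.91%. The median was 10.4% on day 4 and 15.3% on day 8. The lowest of the 3 days was day 0 for 13 members, day 4 for 9 and day 8 for 3. On day 0, 9 members were under 1 CPM and 7 were at 5 CPM or more, so the set holds genes that were nearly silent in untreated cells together with genes that already had clear RNA there.

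MS-275 split the members. The ratio of the MS-275 mean to the DMSO mean ran from 0.308 for Serpinf1 to 6.56 for Csn3, with a median of 1.08. In no member did the 2 MS-275 libraries overlap the 2 DMSO libraries: 14 members were above and 11 below. Among all 9320 protein-coding genes with at least 10 CPM on day 2, 39.0% were above without overlap and 47.3% below, and the median ratio was 0.966. A difference of at least 1.5-fold was seen for 9 members upward and 6 downward, against 13.3% of the 9320 genes in each direction. With TMM factors, which correct library sizes for composition, the counts were 6 upward and 6 downward, against 9.71% and 19.5% of the genes. The membership rule bars a 4-fold deficit with MS-275 and sets no limit on a surplus, so these counts are a description. The highest ratios were those of Csn3 at 6.56, Cyp1a1 at 3.03, Ifitm1 at 2.45, Tcea3 at 2.25, Sgpp2 at 1.99 and Ahr at 1.69. The lowest were those of Serpinf1 at 0.308, Kcnj12 at 0.351, Wfikkn1 at 0.383, Erap1 at 0.415, Lhfpl2 at 0.429 and Cyp4f15 at 0.471. The retinoic acid hydroxylase Cyp26a1 was near 1, at 1.08. On the scale of TMM factors all ratios shift by -0.14 on the log2 scale: the members' median becomes 0.977, 11 members lie above 1, and Cyp26a1, Pdlim1 and Cyp1b1 change side. The factors apply to whole libraries, so the 9320 genes shift too, and 0.977 is not to be set against their 0.966. On column totals the members' median was 1.11 times that of the 9320 genes, with 15 members above the latter and 10 below. With MS-275 the summed pluripotency markers were 149 to 152 CPM, against the 51.1 to 53.3 CPM with DMSO given above; their part in these ratios was not tested.

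**Figure D2:**
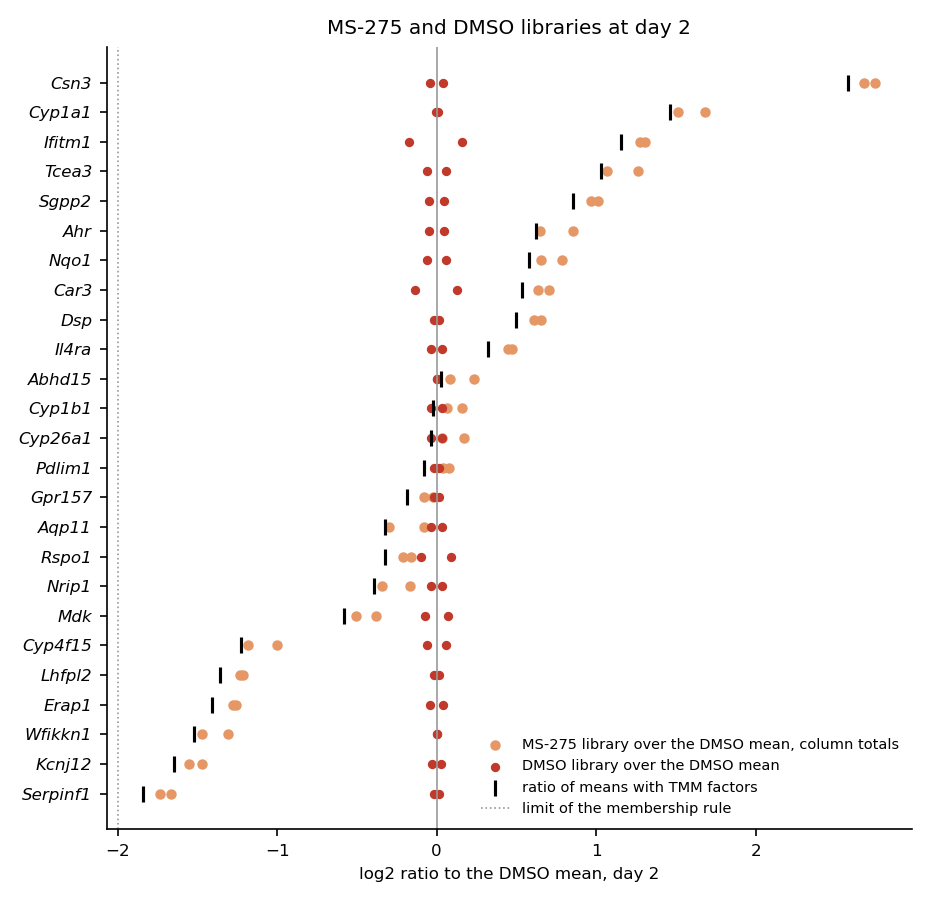
Log2 ratio of each day 2 library to the DMSO mean of the same gene, for the 25 members in order; orange points are the 2 MS-275 libraries, red points the 2 DMSO libraries, and black ticks the ratio of means with TMM factors. The members run from Serpinf1 at 0.308 times the DMSO mean, near the dotted limit of the rule, to Csn3 at 6.56 times.

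Days 0, 4 and 8 could be compared with each other, since the rule put a ceiling on each of them but did not set them against each other. On day 4, 18 of 25 members differed from day 0 (adjusted p under 0.05, edgeR), 12 of them higher and 6 lower. Across all 17789 genes tested 72.3% were called, 36.2% higher and 36.1% lower, so the number called among the members was near the background. Cyp1a1 and Csn3 did not pass the filter on low counts when it was applied to the compared libraries alone, in this comparison or in those of day 8, and were tested because they are high on day 2. The 4 largest rises were those of Cyp26a1 (5.30 ± 0.21, adjusted p = 5.08e-13), Abhd15 (3.32 ± 0.32, adjusted p = 7.76e-08), Sgpp2 (3.21 ± 0.37, adjusted p = 7.07e-07) and Cyp1b1 (2.96 ± 0.32, adjusted p = 3.46e-07), given as log2 fold change ± standard error. For these genes the day 4 libraries lay far under day 2 but clearly above day 0. The 4 largest falls were those of Car3 (-2.37 ± 0.20, adjusted p = 1.66e-08), Serpinf1 (-1.61 ± 0.09, adjusted p = 3.29e-11), Il4ra (-1.14 ± 0.20, adjusted p = 7.6e-05) and Nqo1 (-0.92 ± 0.26, adjusted p = 0.00454). Ahr fell in the same comparison (log2 fold change -0.92). Mdk did not pass (log2 fold change -0.01, standard error 0.06), nor did Lhfpl2, Erap1, Kcnj12, Gpr157, Csn3 and Cyp1a1. The call of Tcea3 was lost without day 0 replicate 2 (adjusted p = 0.0559) and without day 4 replicate 2 (adjusted p = 0.368).

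On day 8, 18 members differed from day 0, 15 higher and 3 lower, against 75.2% of all genes, 38.1% higher and 37.1% lower. This comparison shares its day 0 libraries with the one before. Cyp1b1 (3.48 ± 0.30, adjusted p = 1.56e-08), Abhd15 (2.91 ± 0.34, adjusted p = 6.41e-07) and Wfikkn1 (2.86 ± 0.37, adjusted p = 2.64e-06) rose most. The 3 lower members were Erap1, Mdk and Cyp1a1. The call of Cyp1a1 rests on its passing the filter through day 2, and without it 17 members were called, 2 of them lower. Its level was at least 4.36-fold lower than on day 0, taking 3 counts over the day 8 libraries as the floor, since it had no counts there. Of the 18 calls 7 were lost when 1 library was left out, those of Aqp11, Cyp4f15, Erap1, Gpr157, Pdlim1, Rspo1 and Sgpp2, with adjusted p of 0.0518 to 0.135. The count fell to 13 without day 8 replicate 1.

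Between day 4 and day 8, across the replating into neuronal medium, 20 members differed, 11 higher and 9 lower on day 8. The background was 41.5%, with 21.7% higher and 19.8% lower. The largest rises were those of Car3 (2.30 ± 0.20, adjusted p = 1.28e-07), Serpinf1 (1.93 ± 0.08, adjusted p = 3.06e-11), Il4ra (1.37 ± 0.19, adjusted p = 2.39e-05) and Kcnj12 (1.33 ± 0.19, adjusted p = 2.24e-05). Car3, Serpinf1 and Il4ra are also those with the largest falls from day 0 to day 4, and the day 4 libraries enter both comparisons. Cyp1a1, at least 5.71-fold lower in level on day 8 than on day 4, is among the 9 and again rests on the filter; without it 19 members were called, 8 of them lower. Cyp26a1 (-3.86 ± 0.17, adjusted p = 3.25e-11), Sgpp2 (-1.63 ± 0.29, adjusted p = 0.000247) and Ifitm1 (-0.89 ± 0.22, adjusted p = 0.00367) also fell. The call of Ifitm1 was lost without day 4 replicate 2 (adjusted p = 0.0687). The smaller changes of Aqp11, Cyp1b1, Nrip1, Rspo1 and Wfikkn1 were lost as well when 1 library was left out, at adjusted p up to 0.390, and the lowest count was 15, without day 4 replicate 2 or day 8 replicate 2.

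**Figure D3:**
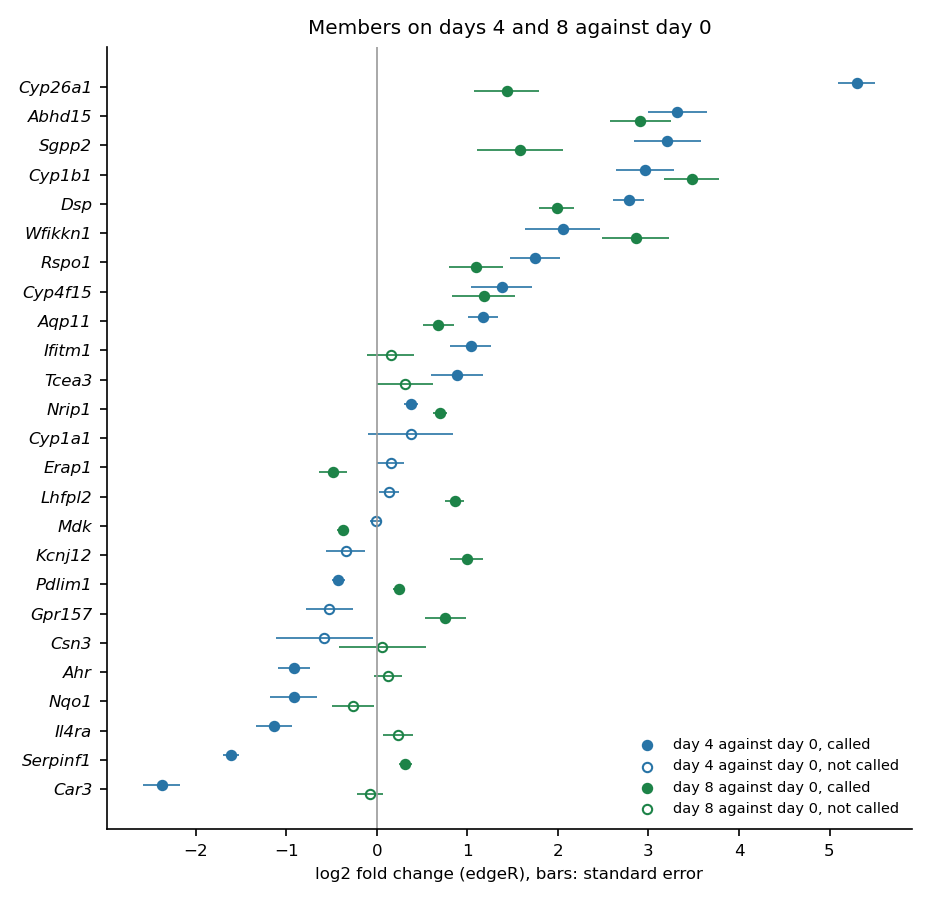
Log2 fold changes of the members on day 4 (blue) and day 8 (green) against day 0, with standard errors as bars; filled points passed an adjusted p under 0.05 and open points did not. Cyp26a1 stands apart at 5.30 on day 4, and Car3 lies lowest at -2.37; Cyp1a1 has no day 8 point because it had no counts there.

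Peaks near the gene start were read from the deposited lists. A RefSeq start was at hand for 21 members; Mdk, Car3, Ahr and Csn3 had no entry in the promoter table. The background was 7581 protein-coding genes with at least 10 CPM on day 2 and a listed start. With DMSO, a peak lay within 1 kb of the start of 20 of 21 members for H3K9ac (background 96.6%), 20 for H3K9cr (96.6%) and 19 for H3K18la (89.3%). So on day 2 the members carried these marks about as often as other expressed genes. Kcnj12 was the member without any of them at its listed start, which lies 43.2 kb inside its RefSeq span. Its strongest H3K9ac peak in the span, of 29.2-fold enrichment, lay 433 bases from the 5′ end. When any part of the gene span counted, all 25 members had all 3 marks with DMSO, against 93.9% of 9316 expressed protein-coding genes. The fold enrichment is the authors' value for a peak over its local background. Within the H3K9ac list the members' median was 26.4, against 49.1 for all background genes with a peak. Cyp26a1 was far above that, at 112 for H3K9ac and 95.2 for H3K9cr, and Nrip1 had 89.3 and 77.8. Rspo1 had the lowest H3K9ac value, 5.92, and no H3K18la peak. In the H3K18la list the order was different: the members' median was 8.64 against 7.46, and Wfikkn1, Cyp4f15 and Serpinf1 led with 20.6, 15.7 and 15.6.

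With MS-275, 20 of 21 members had an H3K9ac peak (background 97.6%) and 20 an H3K9cr peak (97.5%). H3K18la peaks were found at 13 members, or 61.9%, against 32.6% of the background. The day 2 conditions had 1 list each, so no test was made. The 8 members without one were Pdlim1, Kcnj12, Erap1, Cyp1b1, Il4ra, Sgpp2, Rspo1 and Gpr157. Of the 13 members with a peak 7 had a ratio of RNA with MS-275 to DMSO above 1, and of the 8 without one 4 did. With TMM factors the counts were 6 of 13 and 2 of 8. On column totals the ratio was above 1 for 45.6% of the 9320 protein-coding genes with at least 10 CPM on day 2. That share is not split by H3K18la peak and is not given with TMM factors. With a stricter limit of at least 5 on the authors' -log10 q-value, 9 members and 17.7% of the background had an H3K18la peak.

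On day 4, when the RNA was lower than on day 2, 19 members had an H3K9ac peak in both replicate lists (background 97.0%) and 19 an H3K9cr peak (96.7%). H3K18la peaks were in both lists for 15 members (88.1%) and ATAC peaks for 12 (87.1%), or 57.1% of the members. The rule kept the members' RNA on day 4 well under that of day 2, while the background was chosen by RNA on day 2 alone. The members and the background are therefore not matched in day 4 RNA, here and in what follows. Peak strength differed more than presence. The members' median H3K9ac enrichment was 14.6 and 15.9 in the 2 lists, against 66.0 and 66.2 for the background. Erap1 (96.9 and 78.8), Nrip1 (70.0 and 52.1) and Pdlim1 (59.4 and 57.0) were strong even so, and Serpinf1 (5.36 and 4.11) and Cyp4f15 (6.003 and 5.67) were weak. Cyp26a1 had 27.3 and 43.1. Ifitm1 was the member that had H3K9ac and H3K9cr with DMSO and lacked both under the rule of both lists on day 4; H3K9cr was in 1 of the 2 lists. Serpinf1, Lhfpl2, Cyp1a1 and Nqo1 had H3K18la with DMSO but not in both day 4 lists, 4 of 19 members against 6.03% of the background; each of them had a peak in 1 of the 2 lists, and the day 2 call needed only 1 list. The members without ATAC peaks in both lists were Cyp26a1, Serpinf1, Kcnj12, Dsp, Wfikkn1, Ifitm1, Rspo1, Cyp4f15 and Tcea3, and Cyp26a1 had one in replicate 2 alone. With the stricter limit the number with ATAC peaks was 7, against 81.4% of the background.

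**Figure D4:**
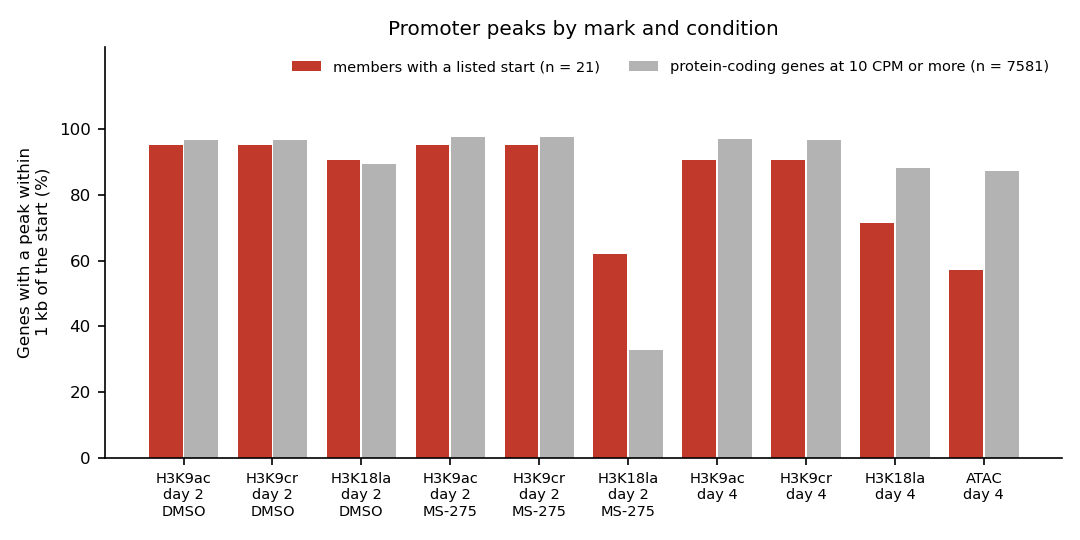
Share of genes with a peak within 1 kb of the gene start, in percent, for the 21 members with a listed start (red) and 7581 background genes (grey), by mark and condition; on day 4 both replicate lists had to hold a peak. The bars are close for H3K9ac and H3K9cr and part for H3K18la with MS-275 (61.9% and 32.6%) and for ATAC on day 4 (57.1% and 87.1%).

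The choice did not use promoter sequence. CpG dinucleotides, which most promoters of widely expressed genes hold in number, were scarce in a subset of the members. The ratio of observed to expected CpG in the 300-base window was under 0.4 in 8 of 21 members, or 38.1%, against 6.95% of the 7581 background genes; the limit of 0.4 was chosen after the values were seen. The medians were 0.642 and 0.810. The 8 genes were Cyp4f15 (0.0885), Wfikkn1 (0.126), Serpinf1 (0.158), Kcnj12 (0.165), Cyp1a1 (0.186), Nqo1 (0.249), Ifitm1 (0.257) and Nrip1 (0.289), and the next was Erap1 at 0.538. The listed starts of Kcnj12 and Cyp1a1 lie inside the RefSeq span, 43.2 and 9.69 kb from its 5′ end, so their windows are not at that end. Among genes whose listed start was within 1 kb of it, 6 of 19 members were under 0.4, or 31.6%, against 5.79% of 6810 background genes. The highest were Il4ra (0.935) and Sgpp2 (0.906). The 100 bases before the start of Cyp4f15, chr17:32685559-32685658, and of Sgpp2, chr1:78310246-78310345, both on the plus strand of GRCm38.p6, show the contrast, with CpG in capitals.
Cyp4f15: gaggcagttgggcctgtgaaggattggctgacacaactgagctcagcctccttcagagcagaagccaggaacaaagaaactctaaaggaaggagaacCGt
Sgpp2: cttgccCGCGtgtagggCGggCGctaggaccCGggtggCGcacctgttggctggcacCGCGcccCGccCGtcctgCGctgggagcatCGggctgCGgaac
Cyp4f15 has 1 CpG in this stretch and Sgpp2 has 13.

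Of the 8 members under 0.4, 7 (all but Kcnj12) had H3K18la peaks with MS-275, against 27.5% of the 527 background genes under 0.4. Of the other 13, 6 had one, against 33.0% of 7054. ATAC peaks in both day 4 lists were found at 3 of the 8 (background 43.8%) and at 9 of the 13 (90.4%). Background genes with few CpG thus had fewer ATAC peaks too. With DMSO, H3K9ac peaks were at 7 of the 8 (background 63.0%) and at all 13 others (99.1%).

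**Figure D5:**
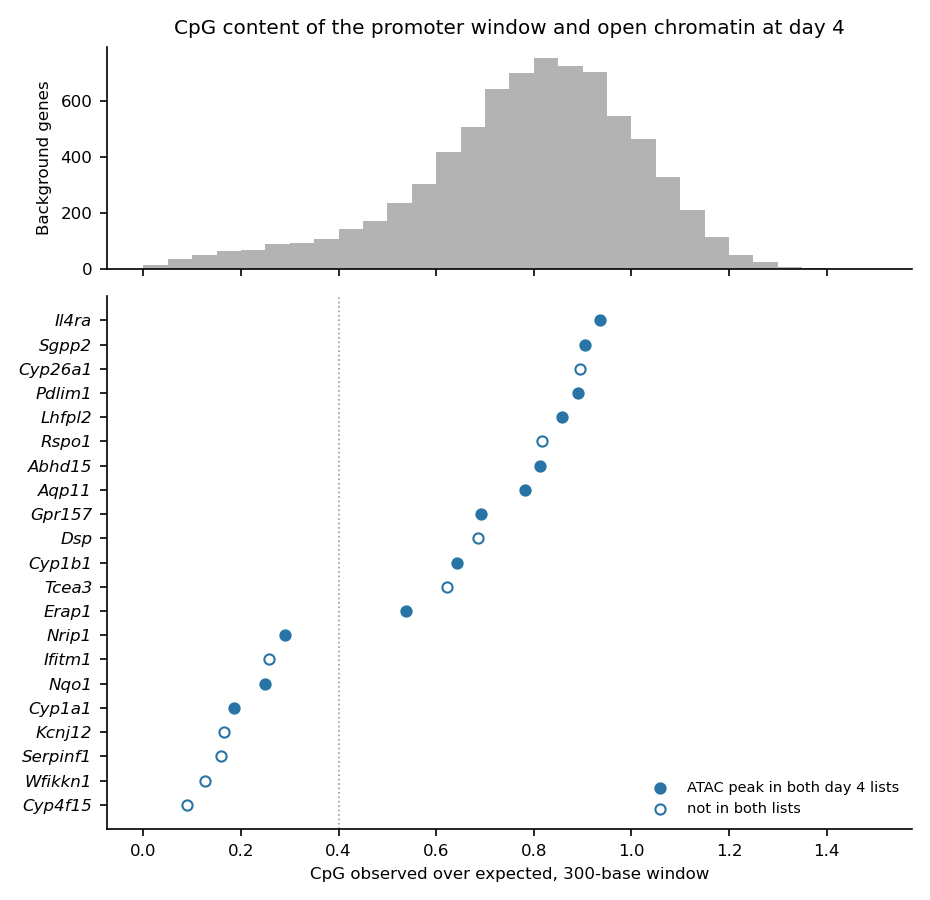
Observed over expected CpG in the 300-base promoter window, as a histogram of the background genes (top) and for the 21 members (bottom), with filled points for an ATAC peak in both day 4 lists and a dotted line at 0.4. The members fall into 8 genes under the line and 13 from 0.538 upward, while the background median is 0.810.

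Other motifs were counted on either strand and set against all promoters and those of genes with at least 10 CPM on day 2. GGGCGG was in 13 of 21 members, or 61.9%, above the 47.2% of all promoters and below the 69.1% of expressed genes. CCAAT was in 4, or 19.05%, against 38.7% and 40.3%. The exact half-site AGGTCA was in 3, or 14.3%, against 14.3% and 10.9%, and CACGTG in 2, or 9.52%, against 7.99% and 11.1%. CTTTGAT was in none, against 3.20% and 2.49%. Direct repeats of the DR1 and DR2 types were in none, against 0.548% and 0.238% of all promoters and 0.633% and 0.198% of those of expressed genes. The members lay on 14 chromosomes with at most 3 on any of them. The closest pair, Abhd15 and Serpinf1 on chromosome 11, were 2.09 Mb apart, and Cyp26a1 and Pdlim1 on chromosome 19 were 2.52 Mb apart, so no members were direct neighbours.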

How the data were processed

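RNA levels were deposited as estimated counts for each gene; the submitters' processing notes name Salmon 1.1.0, and the step from transcripts to genes is not described there. Of the values in a library 19.2% to 25.8% were not whole, and counts were rounded before testing. Peak lists, 1 per library, carry the deposited pileup signal, −log10 p-value and q-value, and fold enrichment (a ratio) of the authors' caller, per the file headers; the notes name MACS2 2.2.7.1, Bowtie2 2.4.1 and GRCm38. Peak lists carry no depth, so that of the chromatin libraries is unknown, and inputs were not used.

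Gene identifiers were matched to symbols for 55144 of 55385 rows, and protein-coding status came from RefSeq. The table of CPM was computed from column totals. Gene tests used edgeR 4.0.16 (TMM factors, filterByExpr, 1 quasi-likelihood fit over all 10 libraries, 17789 genes) with Benjamini-Hochberg adjustment over all genes. The same kind of fit was tried on simulated counts of 4 libraries for day 4 against day 0, over 15932 genes. It recovered 98% of 2-fold and 100% of 4-fold changes, set in 100 genes each, with 15 false calls. The changed genes were drawn above a level limit, and the same spread was set for all genes. This recovery therefore does not carry over to members with low counts or to the fit over all 10 libraries. A promoter peak overlaps the 1 kb on either side of the RefSeq start. The alternatives were DESeq2 1.42.0 as the test and for size factors, no filter, a replicate block, the 4 compared libraries alone, other windows and thresholds, and leaving out each library.

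The members, the gene lists and the comparisons were chosen with earlier results of these data known. Values per library are printed for the 10 members highest on day 2, the 6 highest and 6 lowest MS-275 ratios, the 4 largest called changes each way from day 0 to 4 and from day 4 to 8, and list members; other members and related genes were added after their values were seen.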

Additional observations from a re-analysis of the deposited data

How the results depend on the processing

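The number of members was 26 with TMM factors and 24 to 26 when 1 library was left out, but 42 at 3 times and 16 at 5 times the other days. The median ratio of MS-275 to DMSO was 0.977 with TMM factors and ranged from 1.03 to 1.1 when 1 library was left out. Counts of members called kept within 1.5 times of those reported in all alternatives run: with a replicate block they were 18, 18 and 20 for day 4 against day 0, day 8 against day 0 and day 8 against day 4, with DESeq2 18, 18 and 18, with only the 4 libraries compared 18, 16 and 16, and leaving out 1 library 17 to 18, 13 to 17 and 15 to 19. The replicate numbers are not shown to pair the samples: deviations of same-numbered libraries correlated between -0.0873 and 0.0950, and the block changed no call count. With only the 4 compared libraries, or with DESeq2, calls of Erap1, Cyp1b1, Rspo1 and Wfikkn1 were lost in day 8 comparisons, and with only the 4 libraries Cyp1a1 and Csn3 were not tested, which takes out both calls of Cyp1a1. Signs turned only for members that had not passed the test, here as log2 fold changes. On day 4 against day 0, Mdk was 0.0017 with no filter and ranged from -0.136 to 0.0232 when 1 library was left out, Cyp1a1 from -0.204 to 0.735 and Lhfpl2 from -0.0180 to 0.192. On day 8 against day 0, Csn3 ranged from -0.118 to 0.267 and Ahr from -0.0502 to 0.217; the cause was not tested. Members with an ATAC peak on day 4 numbered 7 with a −log10 q of at least 5, where fewer peaks count. With any part of the gene span, an alternative chosen after seeing the data that takes in all 25 members, H3K18la peaks with MS-275 were at 23, against 43.3% of 9316 expressed genes. Also chosen after seeing the data were the counts on genes with a start near the 5′ end, on members passing the filter in the compared libraries, and of 1.5-fold differences with TMM factors, all within 1.5 times of those reported. Genes with few counts, such as Cyp1a1 and Csn3 outside day 2, are limited by depth, and 2 libraries per group limit every error given.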
